A study of Mus musculus with 6 samples.

Results

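Proteins bound for zymogen granules, the Golgi or the cell surface enter the endoplasmic reticulum (ER) through a fixed set of machines, and 36 of the genes that encode those machines were examined in mouse pancreas. The genes were taken as a list by name: the signal recognition particle (SRP) and its receptor, the Sec61 channel with its helpers, the translocon-associated protein (TRAP) complex, signal peptidase, oligosaccharyltransferase, and the factors that insert tail-anchored proteins. A tested row was found for 35 of the 36 among the 11478 tested genes of the authors' deposited table. Srp54a, which encodes the signal-binding SRP subunit, had no row under its name and was not analysed here. A row named Srp54b, a close relative, carries the identifier that GENCODE M21 names Srp54c, and its deposited fold change differs from the ratio of its FPKM values. It was counted among the further entry genes discussed with the pathway lists, was not called, and its values are not given.

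RNA came from the pancreas of 3 male OCaR1-/- mice (KO) and 3 male wild-type mice (WT), all aged 3 weeks, untreated, and all labelled C56Bl6/N in the strain field (C57Bl6/N in the protocol). OCaR1 is the product of Tmem63a, a name that comes from background knowledge and not from the labels. The sources used here do not say how the null allele was made. The tissue was whole pancreas, so cells of every type were sequenced together, and fewer cells of a type and less RNA per cell cannot be told apart.

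The levels are the authors' values in FPKM (fragments scaled to transcript length and library size, so that genes can be compared with each other). The table gives 1 value per genotype that combines 3 mice, so levels stand without an SD. The judgement of a difference against the variation among mice is that of the authors' Cuffdiff test. A gene is called, and is said to rise or fall, where its q-value in the authors' deposited table was under 0.05. Log2 fold changes are KO over WT, so negative values are lower in KO. Tmem63a itself stood at 4.91 FPKM in KO and 18.3 FPKM in WT (log2 fold change -1.90, q = 0.00152 in the authors' deposited table). The defining genes of the tissue were abundant: the 12 measured acinar genes ranged from 27.2 to 59529 FPKM in KO and from 40.9 to 60473 FPKM in WT.

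The acinar cell makes more secreted protein than almost any other cell, and its cytoplasm is filled with rough ER. SRP catches a ribosome as the signal peptide emerges and docks it at the SRP receptor, the chain passes through Sec61, signal peptidase cuts off the signal peptide, and oligosaccharyltransferase attaches a glycan to asparagine residues of the growing chain. Proteins anchored by a single helix at their end are instead delivered after synthesis by the Get (TRC40) pathway.

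The genes of ER entry were abundant in both genotypes and most had a KO value close to the WT value. Of 35 tested members, 1 was called, Srp68, and it fell. No member rose. That is 2.86% of the members, against 7.54% of all tested genes called (3.35% lower and 4.20% higher in KO). At the wider threshold of q under 0.1, which 9.75% of all tested genes pass, there were 2, Srp68 and Srpr, and the same 2 had an unadjusted p under 0.05 in the authors' deposited table. The members' median log2 fold change was -0.06, and that of all tested genes was -0.03. Among the 7643 tested genes within the members' range of levels the median was -0.05, and 59.3% of those with a fold change lay below 0. These genes were not matched to the members within that range. Their median level was 7.85 FPKM in KO and 8.03 FPKM in WT, against 51.1 FPKM in KO and 56.2 FPKM in WT for the members. Of the 35 members, 24 lay below 0 (68.6%), as did 55.2% of all tested genes with a fold change. Differences were small: 20 members lay within 0.1 of equal levels on the log2 scale, 10 lay further below and 5 further above. The members ran between -0.37 and 0.24. Of all tested genes, which were not matched to the members by level, 30.2% lay within 0.1. The members' levels were high, with 28 of 35 at or above the 90th percentile of tested genes by mean FPKM and 26 above 30 FPKM in both genotypes. Their summed level was 3013 FPKM in KO and 3140 FPKM in WT.

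**Figure D1:**
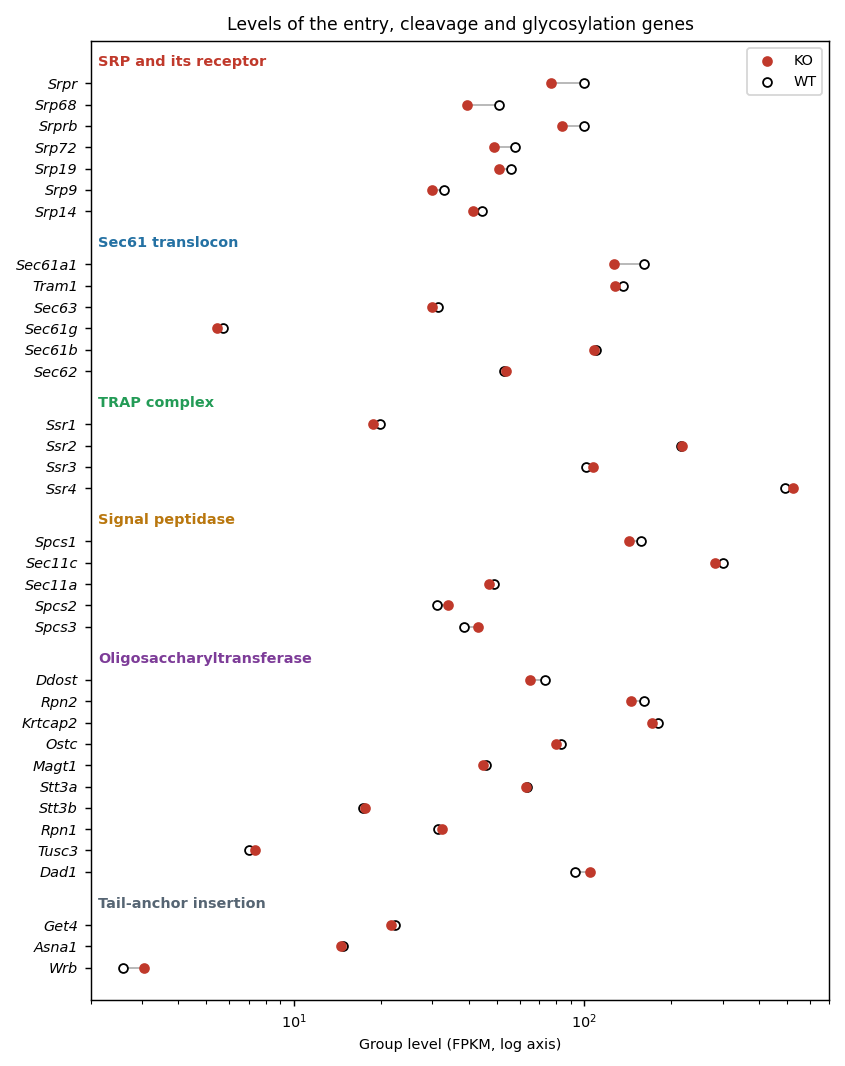
Levels of the 35 measured members in KO (filled red) and WT (open black) pancreas, in FPKM on a log axis, grouped by complex and ordered by fold change; each point is the authors' single value for a genotype, with no error available. KO and WT points nearly coincide for most genes, and the SRP rows show KO left of WT in all 7 cases.

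SRP and its receptor formed the group with the lowest median, and its members were all below WT. All 7 measured genes had a lower value in KO, with a median log2 fold change of -0.25 and a range from -0.37 to -0.09. Of the 7, 1 fell by the authors' test. Srp68, which with Srp72 forms a protein pair of the particle's signal-recognition domain, stood at 39.6 FPKM in KO and 51.0 FPKM in WT. It thus fell to 77.6% of the WT level (log2 fold change -0.37, q = 0.00152 in the authors' deposited table). Its p of 5e-05 is the smallest in that table and is shared by 394 genes. Srp68 (ENSMUSG00000020780, protein-coding) lies on GRCm38 chromosome 11, 116245166 to 116274217, minus strand, and shares its interval with no other row. None of the 2778 distinct 50-base windows of its GENCODE M21 transcripts, 50 bases being the read length, occurs in a transcript of another gene.

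Its partner Srp72 had 48.8 FPKM in KO and 58.0 FPKM in WT (log2 fold change -0.25), short of a call with q = 0.359 in the authors' deposited table. The remaining subunits lay nearer to WT. Srp19, which helps the particle's RNA fold for assembly, had 51.1 FPKM in KO and 56.2 FPKM in WT (log2 fold change -0.14). Srp9 and Srp14 encode the pair that slows the ribosome while it is being delivered. Srp9 had 29.97 FPKM in KO and 32.8 FPKM in WT, and Srp14 had 41.6 FPKM in KO and 44.4 FPKM in WT (q = 0.661 and q = 0.769 in the authors' deposited table). Srp9 lies on chromosome 1 within 1.15 Mb of Tmem63a, and for a gene so near the targeted locus the null allele and linked sequence cannot be told apart.

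Both receptor subunits had lower values in KO without a call. Srpr, the GTPase that meets SRP at the membrane, had 77.2 FPKM in KO and 99.6 FPKM in WT, a log2 fold change of -0.37 that matches Srp68 in size (p = 0.00625 and q = 0.0733 in the authors' deposited table). Srprb, which anchors Srpr in the membrane, had 84.1 FPKM in KO and 100.015 FPKM in WT (log2 fold change -0.25, q = 0.875 in the authors' deposited table). Srprb and Srp72 therefore had the same log2 fold change with unlike p-values, 0.563 and 0.0736 in that table. Both receptor genes share their interval with other rows. The Srprb interval also holds Trf, the transferrin gene, at 37.6 FPKM in KO and 14.5 FPKM in WT without a call. It holds Gm20425 as well, at 7.64 FPKM in KO and 4.54 FPKM in WT, also without a call. Of the 50-base windows of Srprb, 19.9% occur in other genes' transcripts, almost all of them in Gm20425. For Srpr the share was 17.8%, mostly in Gm6733. The sources used here do not say how such reads were divided.

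Without the 2 receptor genes that share an interval, the SRP median was -0.14 over 5 genes, all still below 0. The 3 other scalings tried shift every gene by the same amount (-0.07, -0.01 and 0.03 on the log2 scale). These shifts are too small to bring any of the 7 genes to 0, so their signs could not change. The SRP median lay between -0.32 and -0.22 under them. The shift of -0.07 also moved the median of all tested genes, to -0.10. Markers of several cells other than acinar cells were higher in the same KO tissue: the summed level of 9 fat cell markers was 198 FPKM in KO and 90.4 FPKM in WT, that of 13 macrophage markers 141 FPKM in KO and 80.1 FPKM in WT, and that of 14 islet markers 4127 FPKM in KO and 2573 FPKM in WT. Of these markers the authors' deposited table called 7, 10 and 11 higher and none lower. The other lists were less uniform. The summed level of 12 fibroblast and stellate cell markers was 546 FPKM in KO and 419 FPKM in WT, with 6 called higher and 2 lower, and that of 10 endothelial markers was 64.5 FPKM in KO and 51.0 FPKM in WT, with 4 called higher. The 6 plasma and B cell markers summed to 389.8 FPKM in KO and 365 FPKM in WT, with 3 called higher. Xbp1 alone made up 246 FPKM in KO and 304 FPKM in WT of that sum. The median log2 fold change of this list was 0.89, with 4 genes above 0 and 2 below. The 8 duct cell markers summed to 243 FPKM in KO and 246 FPKM in WT, with 1 called higher. Their median log2 fold change was 0.24, with 6 genes above 0 and 2 below. No measured marker was listed at 0 in either genotype. The 12 acinar genes had a median log2 fold change of 0.01 and 2 of them were called, both lower (Ptf1a and Pnlip). The part of the other cells in the SRP values was not tested.

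**Figure D2:**
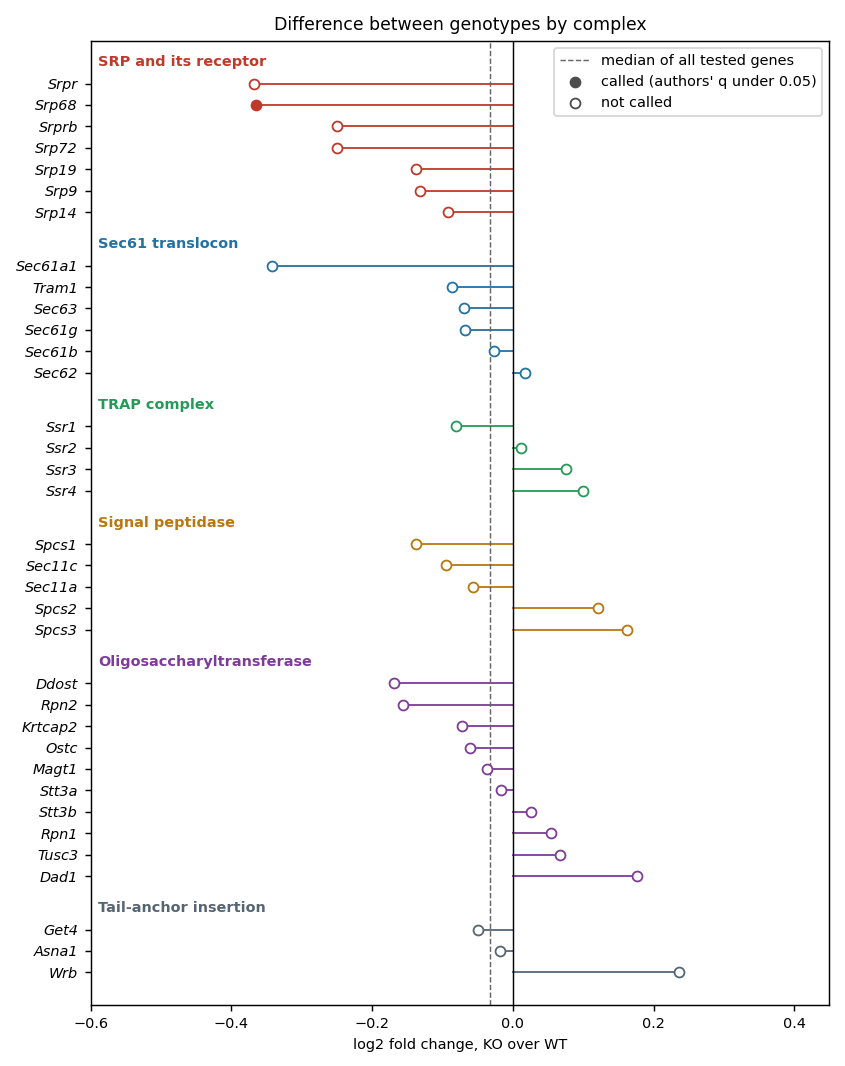
Log2 fold change, KO over WT, of each measured member by complex; filled points are called at the authors' q under 0.05, open points are not, and the dashed line is the median of all tested genes (-0.03). Srp68 is the single filled point, and Srpr, Srp68 and Sec61a1 are the 3 members beyond 0.3 in size.

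Promoter sequence was available for part of the group and is shown because several members had lower values side by side. Windows running from 250 bases before to 50 bases after an annotated start were taken from RefSeq (GRCm38.p6), and 26 of the 35 measured members had at least 1, giving 29 windows. Srp68, the single called member, was not among them, nor was Sec61a1. The windows of Srpr at chr9:35210953-35211252 (plus strand), Srprb at chr9:103202016-103202315 (minus strand) and Srp72 at chr5:76974451-76974750 (plus strand) follow. Capitals mark the letters CCACG, the downstream end of the ER stress response element (ERSE), and ACGTG, a core shared by sites of the factors ATF6 and XBP1, on either strand; both overlap where the letters read CCACGT.
Srpr: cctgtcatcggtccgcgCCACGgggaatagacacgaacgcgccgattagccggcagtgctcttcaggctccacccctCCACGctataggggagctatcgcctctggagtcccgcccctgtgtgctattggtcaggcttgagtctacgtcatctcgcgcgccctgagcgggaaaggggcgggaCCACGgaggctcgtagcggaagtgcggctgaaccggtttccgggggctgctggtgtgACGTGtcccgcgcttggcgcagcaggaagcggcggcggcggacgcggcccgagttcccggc
Srprb: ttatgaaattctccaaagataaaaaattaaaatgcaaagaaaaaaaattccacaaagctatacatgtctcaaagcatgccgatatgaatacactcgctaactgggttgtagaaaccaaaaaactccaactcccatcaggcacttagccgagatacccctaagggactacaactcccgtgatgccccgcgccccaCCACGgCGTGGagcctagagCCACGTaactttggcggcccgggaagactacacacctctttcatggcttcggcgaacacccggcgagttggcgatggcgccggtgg
Srp72: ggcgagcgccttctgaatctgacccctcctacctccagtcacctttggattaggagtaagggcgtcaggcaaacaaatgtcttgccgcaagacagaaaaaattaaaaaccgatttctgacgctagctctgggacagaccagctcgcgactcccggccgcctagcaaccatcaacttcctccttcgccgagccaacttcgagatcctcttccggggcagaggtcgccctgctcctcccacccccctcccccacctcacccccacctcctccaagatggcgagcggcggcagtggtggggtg

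The Srpr and Srprb windows each held 3 matches to CCACG and 1 to ACGTG, and the Srp72 window held neither. The Srprb matches all lay within 56 bases before the start. Over the 29 windows of members, 69.0% held CCACG, against 47.7% of 10475 windows of genes tested in the table and 32.8% of all 32851 windows. ACGTG was found in 55.2% of members' windows, 25.9% of windows of tested genes and 19.6% of all windows. The median GC content was 60.0% for members, 61.0% for tested genes and 52.7% for all windows. The full element, CCAAT and CCACG with 9 free bases between them, was in none of the members' windows. It was in 0.143% of windows of tested genes and 0.119% of all windows. These are matches of letters and say nothing of binding. Of 21 members with CCACG or ACGTG, 14 were below WT and 7 above (log2 fold changes from -0.37 to 0.24). Of 5 with neither, 4 were below WT and 1 above (from -0.25 to 0.10). Whether the letters bear on the fold changes was not tested.

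**Figure D3:**
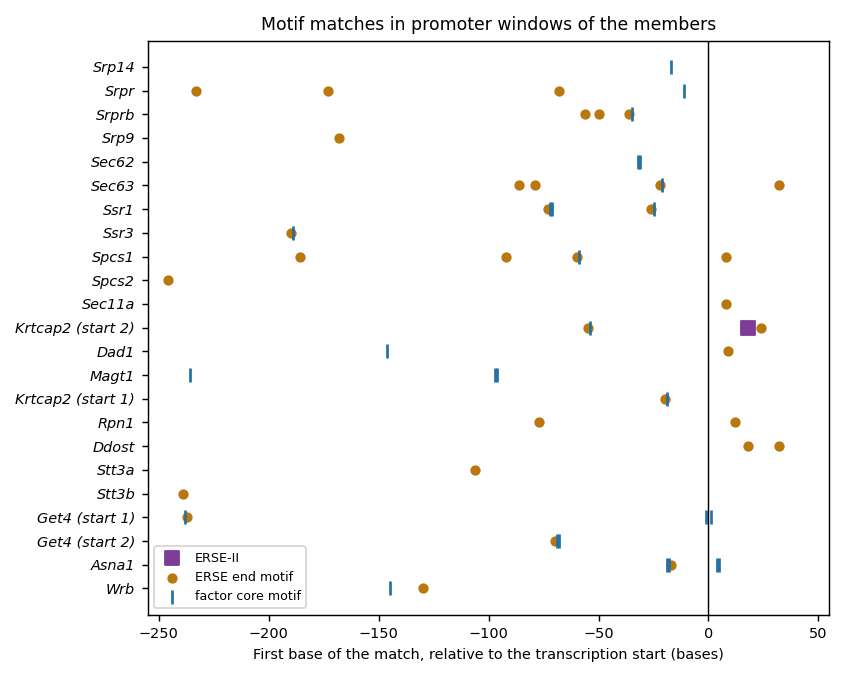
Position of matches to CCACG (ERSE end motif), ACGTG (factor core motif) and the ERSE-II element in the members' promoter windows, in bases from the annotated start (0), for the 23 windows with a match; genes with 2 annotated starts have a row for each. Of 27 matches to ACGTG, 19 begin within 100 bases before the start. Both strands were searched, so a palindromic CACGTG counts as 2 matches, and distinct sites are fewer than matches.

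The Sec61 channel and its helpers did not pass the test in either direction (0 of 6 called, 0 with an unadjusted p under 0.05), with a median of -0.07. Sec61a1, the pore subunit, stood at 127 FPKM in KO and 160.4 FPKM in WT. Its log2 fold change of -0.34 was the lowest of the group (p = 0.0593 and q = 0.315 in the authors' deposited table). The small subunits beside the pore were near WT. Sec61b had 107.8 FPKM in KO and 109.9 FPKM in WT, and Sec61g had 5.44 FPKM in KO and 5.70 FPKM in WT. Sec61g was thus listed far below its partners in both genotypes. Of its 50-base windows, 14.8% occur in other genes' transcripts, led by Gm10177, and for Sec61b 17.4% do.

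The helpers of the channel also lay near WT. Sec62 and Sec63 assist chains that enter after or late in synthesis, and Sec63 recruits the ER chaperone BiP. Sec62 had 53.8 FPKM in KO and 53.2 FPKM in WT, and Sec63 had 29.9 FPKM in KO and 31.4 FPKM in WT. Tram1, a membrane protein next to the channel, had 128 FPKM in KO and 136 FPKM in WT. The q-values of these 3 genes lay between 0.911 and 0.984 in the authors' deposited table.

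The TRAP complex, which sits beside Sec61 and helps weak signal peptides open it, held the most abundant member and had the highest group median (0.04, 0 of 4 called). Ssr4 stood at 526 FPKM in KO and 491 FPKM in WT (log2 fold change 0.10, q = 0.771 in the authors' deposited table). Ssr2 had 217 FPKM in KO and 216 FPKM in WT, and Ssr3 had 107 FPKM in KO and 101 FPKM in WT. Ssr1, the alpha subunit, was the least abundant at 18.8 FPKM in KO and 19.9 FPKM in WT. The sum of the 4 genes was 869 FPKM in KO and 828 FPKM in WT, while that of SRP and its receptor was 372 FPKM in KO and 442 FPKM in WT. None of the 50-base windows of Ssr3 and Ssr4 occurs in another gene's transcripts. The difference between these complexes was not tested, since single mice are not in the table.

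Signal peptidase genes split in sign and none was called (0 of 5, median -0.06). The 2 catalytic subunits are alternatives to each other. Sec11c, by far the more abundant in this tissue, had 283 FPKM in KO and 302 FPKM in WT, and Sec11a had 47.0 FPKM in KO and 48.9 FPKM in WT. Their ratio was 6.02 in KO and 6.18 in WT. Of the accessory subunits, Spcs1 had 143 FPKM in KO and 157 FPKM in WT. Spcs2 and Spcs3 leaned the other way, with 33.9 FPKM in KO and 31.2 FPKM in WT for Spcs2 and 43.2 FPKM in KO and 38.6 FPKM in WT for Spcs3 (q = 0.612 and q = 0.421 in the authors' deposited table). Spcs1 and Sec11a share their interval with other rows, and without them the median over the remaining 3 genes was 0.12, so that the sign of this median rests on them.

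Oligosaccharyltransferase comes in 2 forms, built on the catalytic subunit STT3A, which works on chains as they pass the channel, or STT3B, which acts on sites that were missed. None of 10 genes was called (median -0.03, range -0.17 to 0.18). Stt3a had 63.0 FPKM in KO and 63.8 FPKM in WT, and Stt3b had 17.6 FPKM in KO and 17.3 FPKM in WT. The ratio of Stt3a to Stt3b was 3.58 in KO and 3.69 in WT. Ostc and Krtcap2, which couple the STT3A form to the channel, had 80.0 and 171 FPKM in KO, against 83.4 and 180.1 FPKM in WT. The oxidoreductase subunits of the STT3B form were also near WT: Magt1 had 44.8 FPKM in KO and 46.0 FPKM in WT, and Tusc3 had 7.36 FPKM in KO and 7.03 FPKM in WT.

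The scaffold shared by both forms held the largest differences of this complex, in opposite directions. Ddost had 65.4 FPKM in KO and 73.5 FPKM in WT (log2 fold change -0.17, q = 0.384 in the authors' deposited table), and Dad1 had 104.8 FPKM in KO and 92.7 FPKM in WT (log2 fold change 0.18, q = 0.349 in the same table). The ribophorin genes Rpn1 and Rpn2 also differed in sign. Rpn2 had 145 FPKM in KO and 161 FPKM in WT, and Rpn1 had 32.5 FPKM in KO and 31.3 FPKM in WT. Neither was called.

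The element ERSE-II is ATTGG and CCACG with 1 free base between them. It was found in 12 of all 32851 windows (0.0365%) and in 8 of 10475 windows of tested genes (0.0764%). Krtcap2 was the single member with this element. The match begins at position 18 from the second of its 2 annotated starts, counting the first transcribed base as 1, in the window at chr3:89246223-89246522 (plus strand). Capitals mark that element and further matches to CCACG and ACGTG.
Krtcap2: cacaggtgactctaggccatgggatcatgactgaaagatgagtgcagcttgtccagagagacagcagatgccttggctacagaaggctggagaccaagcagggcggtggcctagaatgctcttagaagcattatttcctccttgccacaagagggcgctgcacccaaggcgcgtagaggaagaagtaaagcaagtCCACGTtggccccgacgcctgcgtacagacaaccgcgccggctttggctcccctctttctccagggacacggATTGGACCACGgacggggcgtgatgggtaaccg

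Tail-anchor insertion genes were the least abundant and lay near WT (0 of 3 called, median -0.02). Get4, which hands clients on to the ATPase, had 21.5 FPKM in KO and 22.3 FPKM in WT. Asna1, the ATPase itself, had 14.6 FPKM in KO and 14.8 FPKM in WT. Wrb, the membrane receptor, had the lowest level of all members, at 3.05 FPKM in KO and 2.59 FPKM in WT, and the highest fold change among them (log2 0.24, q = 0.708 in the authors' deposited table).

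**Figure D4:**
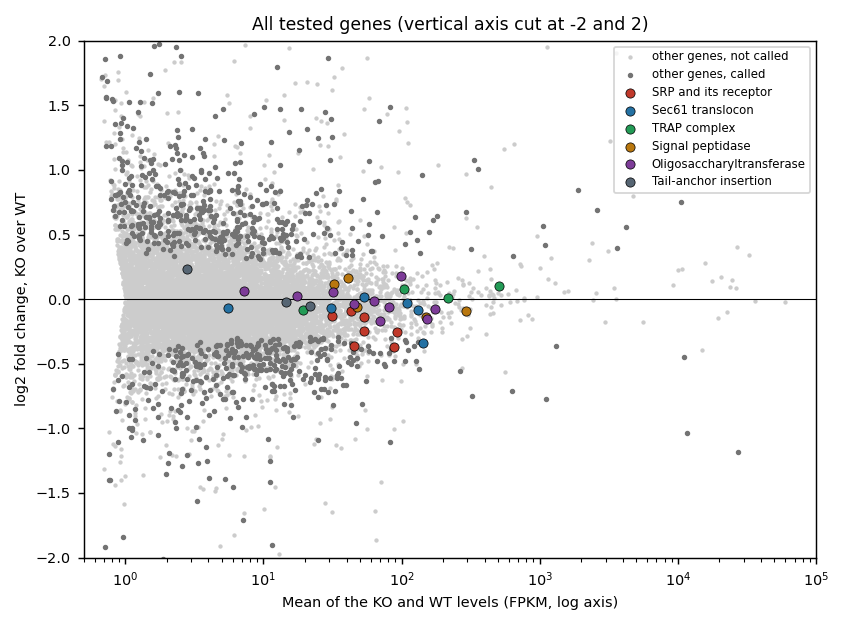
Log2 fold change, KO over WT, against the mean of both group levels in FPKM (log axis) for tested genes (grey, darker where called) with the members in colour by complex; genes beyond -2 or 2 fall outside the frame. Members lie in the abundant right part of the cloud and close to the zero line, with the SRP genes (red) and Sec61a1 (lowest blue point) below it.

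How large a difference the authors' test could call at these levels bears on how the values are read. Among 955 tested genes with a mean level from 30 to 300 FPKM, 86 were called, and the smallest called difference was 0.29 on the log2 scale. Of 76 such genes with a difference between 0.3 and 0.4 in size, 23 were called (30.3%). Srp68, Srpr and Sec61a1 are the 3 members in that range, with 1 call. A member that was not called is therefore not shown to be at its WT level.

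Other genes of the same pathway, listed by function, were called in 4 of 75 cases, all lower in KO. That is 5.33%, against 3.35% of all tested genes called lower and 7.54% called in either direction. Among 12 further entry and processing genes, Lrrc59, a ribosome-binding ER membrane protein, fell to 72.4 FPKM in KO, against 94.5 FPKM in WT (log2 fold change -0.38, q = 0.00628 in the authors' deposited table, in an interval shared with another row). The list median was 0.05, and 0.06 over the 11 genes other than the row named Srp54b. Ost4 and Tmem258, small subunits of oligosaccharyltransferase, were among those not called, with 50.6 and 110.7 FPKM in KO and 43.4 and 105.9 FPKM in WT. Among 16 membrane insertion genes, Nomo1, part of a complex at the back of the channel that handles proteins with many helices, fell to 23.2 FPKM in KO, against 28.8 FPKM in WT (q = 0.0223 in the authors' deposited table). Its partner Ncln had 17.4 FPKM in KO and 22.4 FPKM in WT without a call (log2 fold change -0.37, q = 0.313 in the same table), and the list median was -0.09. None of 4 partners of tail-anchor insertion was called (median -0.12).

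The genes that build and read the glycan were listed apart. None of 30 genes of dolichol-linked glycan synthesis was called by Cuffdiff, with 2 at an unadjusted p under 0.05 (median -0.11). Of 13 glycan trimming and recognition genes, 2 fell (15.4%, against 3.35% of all tested genes called lower and 7.54% called in either direction). The list median of -0.26 was the lowest of the pathway lists. Edem2, which trims mannose from misfolded glycoproteins, fell to 95.5 FPKM in KO, against 120.0 FPKM in WT (log2 fold change -0.33, q = 0.0256 in the authors' deposited table). Its relative Edem3 fell to 21.9 FPKM in KO, against 27.4 FPKM in WT (log2 fold change -0.32, q = 0.0280 in the same table). The lectin chaperones of this list were near WT: Calr had 186 FPKM in KO and 179.8 FPKM in WT, and Canx had 97.2 FPKM in KO and 94.5 FPKM in WT.

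**Figure D5:**
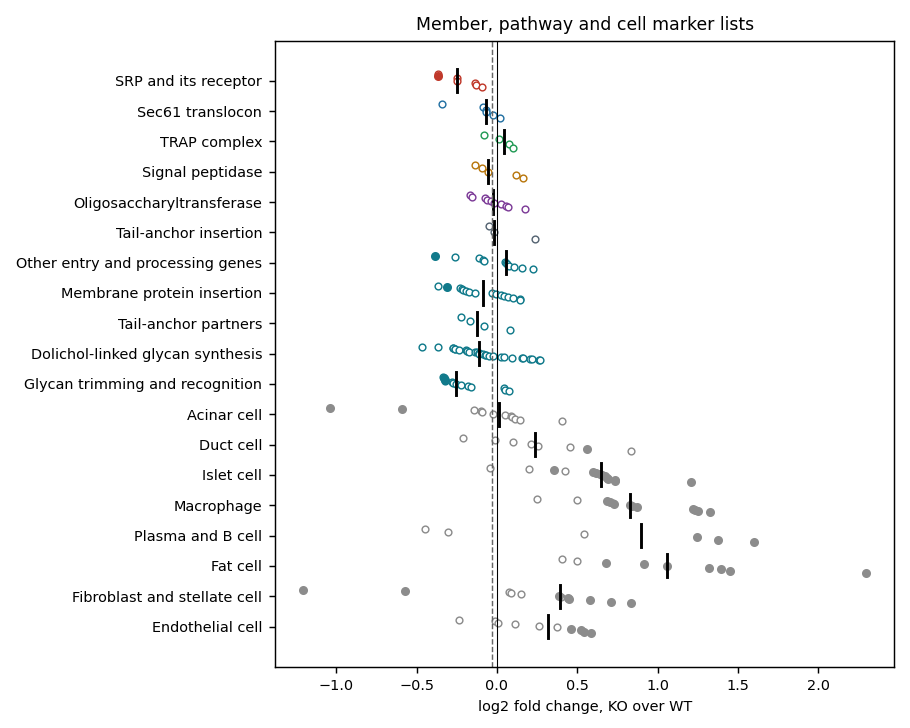
Log2 fold change, KO over WT, of each measured gene in the member lists (top 6 rows), the other pathway lists (next 5) and the cell marker lists (last 8, grey); filled points are called, black bars are list medians and the dashed line is the median of all tested genes. SRP and glycan trimming genes have medians near -0.25, while the fat cell, macrophage and islet marker medians are 1.06, 0.83 and 0.65.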

How the data were processed

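RNA of whole pancreas was measured by sequencing in 3 KO and 3 WT mice. Poly(A)-selected RNA with integrity numbers of 8.20 to 9.10 was read as single reads of 50 bases, per the labels' protocols. Reads were processed with Cufflinks 2.2.1, Cuffdiff and STAR 2.5.1b on GRCm38, per the submitters' processing notes. The sources used here do not state the annotation, the Cuffdiff settings, strand use or the treatment of reads mapping to several places.

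The deposited table has 12016 rows with 1 FPKM value per genotype, made by the authors from 3 libraries each, with a p-value and a q-value from the authors' test, per the file headers. Depth per sample is unknown. Every row exceeds 1 FPKM in at least 1 genotype, and 538 rows marked as not tested were left out. The deposited fold change column holds spreadsheet error cells and was not used. Log2 fold changes were recomputed from FPKM with no pseudocount (Python 3.11.15, pandas 2.3.3). A run on simulated data checked only the formulas for the log2 ratio and for Benjamini-Hochberg, not how the values were read in. The test planned on single libraries could not be run, so the authors' q under 0.05 is the only test. Starts were shifted to count from 1. The members and lists were chosen with earlier results of these data known. Named were all measured members, Tmem63a, and the called genes of each pathway list. Ost4, Tmem258, Ncln, Calr, Canx, Ptf1a, Pnlip, Sec61a2, Trf, Gm20425 and the antibody and marker genes of the closing paragraph were chosen after their values were seen. The 50-base windows were searched on both strands of GENCODE M21 transcripts, which hold all 35 identifiers. Alternatives changed the threshold, pseudocount, level filter, scaling and rows sharing an interval.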

Additional observations from a re-analysis of the deposited data

How the results depend on the processing

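No paired analysis was possible because the table gives 1 value per genotype and no value of a single mouse, and for the same reason no mouse could be left out in turn; both were therefore not run. At q under 0.1 in the authors' deposited table, 2 members were called in place of 1 (Srp68 and Srpr, both lower; 9.75% of all tested genes pass that threshold), and 5 glycan trimming genes in place of 2, all lower. The member count was 1 at q under 0.01, with the q recomputed by Benjamini-Hochberg over the tested genes, with at least 5 FPKM in either genotype, and without rows sharing an interval. The last 2 settings only drop members and keep the deposited q, and Srp68 passes both, so the count could not change there. Nor could it at 0.01, since the q of Srp68 in the authors' deposited table was 0.00152. Leaving out those rows moved 2 medians of member lists by more than 0.1, that of SRP and its receptor to -0.14 and that of signal peptidase to 0.12; the remaining genes were fewer, 5 and 3. It also moved the median of the membrane insertion genes to -0.19 over 9 genes. The other medians of member and pathway lists moved by less than 0.1 there, and all of them did under a pseudocount of 1 FPKM, the level filter, centring on the median of all tested genes (a shift of 0.03), rescaling outside 9 acinar enzyme genes (-0.07) and rescaling outside 49 genes of at least 1000 FPKM (-0.01), the last chosen after seeing the data, as were all of these settings for the medians of the pathway lists. The shift of -0.07 puts the TRAP median at -0.02 and that of the further entry genes at -0.01, and centring puts the oligosaccharyltransferase and tail-anchor medians at 0.01. Srp68, at a log2 fold change of -0.37, was below 0 under the pseudocount, the centring and both rescalings. These settings change its value too little to bring it to 0, so its sign could not have changed. Without values of single mice, the spread behind each level is unknown, and the calls depend on the authors' model of it.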

Other observations

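The second gene for the channel pore, Sec61a2, was expressed at a far lower level than Sec61a1. It had 5.43 FPKM in KO and 4.87 FPKM in WT and was not called, at q = 0.952 in the authors' deposited table and in an interval shared with another row, and the ratio of Sec61a1 to Sec61a2 was 23.3 in KO and 32.9 in WT. Antibody genes, whose products also enter through the channel, were higher in KO: Igkc had 98.7 FPKM in KO and 38.1 FPKM in WT, Ighm 34.9 FPKM in KO and 14.7 FPKM in WT, and the joining chain gene Igj 5.03 FPKM in KO and 1.66 FPKM in WT, all 3 called in the authors' deposited table. Of the 6 measured genes of that marker list, Xbp1 and Sdc1 had lower values in KO without a call. The part of antibody-making cells in the levels of the ER entry genes was not tested.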
